A study of Mus musculus with 28 samples.

Results

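The nuclear genes for the subunits of the mitochondrial respiratory chain were described in MC38, a mouse colon adenocarcinoma cell line. Members were taken by name from both deposited expression tables (names starting with Nduf, Sdh, Uqcr, Cyc1, Cox4 to Cox8 or Atp5 in the forms used for subunits, without pseudogene names). This gave 79 genes, of 12721 listed in the in vitro table, 12948 in the co-culture table and 12274 in both. They fall into 35 genes of complex I, 4 of complex II, 9 of complex III, 14 of complex IV and 17 of complex V. Ndufa4, which was first assigned to complex I, was counted with complex IV. Atp5s and Atp5sl carry the name of complex V without being structural subunits of it. All 79 members passed the filter on low values and were tested in every comparison.

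Complexes I to IV pass electrons from NADH and succinate to oxygen. Complexes I, III and IV also pump protons across the inner mitochondrial membrane, and complex V, the ATP synthase, uses the proton gradient to make ATP. Complex II also belongs to the citric acid cycle and is the only complex with no subunit encoded in mitochondrial DNA. The other complexes combine many nuclear subunits, made in the cytosol and imported, with a few mitochondrially encoded ones. Proliferating tumour cells use the chain for ATP, for the regeneration of NAD and for aspartate synthesis.

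The in vitro table holds 5 groups of 2 libraries each, namely MC38 cells given TNF, IFNG, the pair of cytokines (TNF + IFNG) or co-culture supernatant (called supernatant below), and untreated cells. The co-culture table holds 3 groups of 3 libraries each: MC38 cells grown beside OT1 T cells with either an isotype control or anti-PD1 antibody, and MC38 cells alone. OT1 cells are CD8 T cells with a transgenic receptor for an ovalbumin peptide, and PD1 is an inhibitory receptor of T cells. The cytokines and the T cells were present for 6 hours. The labels give neither the time of the supernatant treatment nor the cells of that co-culture, and no promoter, Cre or clone limits the model beyond its being 1 cell line. The labels do not say whether replicates came from separate cultures, so p-values measure the spread between these libraries, which may be technical. The third anti-PD1 library is called untreated by its title and was placed by its description, and the column of the second isotype library names OT2, not OT1.

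Values are log2 CPM (log2 of read counts scaled to a common library size) from 3′ end sequencing, so they do not grow with transcript length and levels can be compared between genes. Implied depth ran from 3420000 to 11290000 reads per library in vitro and from 3800000 to 11030000 in co-culture. Of 7 epithelial markers 1 was listed in vitro and 5 in co-culture, at a summed 1.61 to 33.3 CPM in co-culture. Of 3 mesenchymal genes, Vim and Fn1 were listed and Col1a1 was not. Vim stood at 9.69 to 10.45 log2 CPM in all 19 libraries. Fn1 stood at 5.11 to 7.26 log2 CPM and fell in both co-culture comparisons with MC38 alone (limma, adjusted p under 0.05). Treatment checks moved: Nfkbia rose with TNF by 3.39 ± 0.14 and Irf1 with IFNG by 3.06 ± 0.12 (log2 fold change ± SE). The third library of MC38 alone goes against its label. The T cell markers, 12 of 16 of them listed, summed to 67.6 CPM in it, as in the isotype (76.8 to 87.3 CPM) and anti-PD1 co-cultures (67.4 to 90.0 CPM), against 3.25 and 4.05 CPM in the other libraries of MC38 alone. Its Irf1 (7.99) and Nfkbia (7.95 log2 CPM), target genes of interferon and of TNF, were at the level of the other libraries of MC38 alone, whereas Irf1 was 11.43 to 11.70 in the co-cultures. It was also the shallowest of the table. In comparisons with MC38 alone the main counts, and the fold changes of many but not all genes described at length, are given with and without it. In bulk RNA, fewer MC38 cells in a sample and less of a transcript per cell cannot be told apart.

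The most abundant member in both tables was Uqcrh, the hinge protein of complex III, at a mean of 9.73 log2 CPM in vitro and 9.68 in co-culture. The highest of complex IV was Cox6c, with means of 9.67 and 9.48 log2 CPM, and the highest of complex I was Ndufb8, with 9.17 and 8.91. In complex V the highest was Atp5l in vitro, with 9.65 log2 CPM, and Atp5g3 in co-culture, with 9.42. Atp5l, subunit g, is uncertain, since the pseudogene name Atp5l2-ps stood at 8.88 to 10.09 log2 CPM in the same libraries. In complex II Sdhb led in vitro and Sdhc in co-culture. At the other end, 4 members averaged below 2 log2 CPM in vitro and 3 in co-culture: the muscle isoforms Cox7a1 and Cox6a2 (Cox6a2 in vitro only), and Atp5s and Atp5sl. By the last 200 bases of their transcripts, 10 of 78 members with an annotated transcript have a near copy elsewhere (at least 95% identity over at least 100 bases), and reads could be split between such copies. These are Atp5g1, Atp5g2, Atp5h, Atp5k, Atp5l, Atp5o, Cox6a1, Cox7c, Ndufb11 and Ndufs3.

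After 6 hours with OT1 T cells, some subunit genes of complexes I, III, IV and V were lower than in MC38 alone, whichever antibody was present. No complex II gene passed the test, but with only 4 genes a count of 0 does not set that complex apart. With the isotype antibody 18 of 79 members fell and 0 rose at an adjusted p under 0.05 (limma, Benjamini-Hochberg adjustment over all 12707 genes tested). With the anti-PD1 antibody 19 fell and 0 rose. Over all genes tested, 6.22% fell and 7.64% rose with isotype, and 7.71% fell and 8.42% rose with anti-PD1, against 22.8% and 24.1% of the members that fell. The median log2 fold change of the members was -0.22 with isotype and -0.21 with anti-PD1, beside -0.06 over all genes in each comparison. Both comparisons use the same libraries of MC38 alone, so they are not independent of each other.

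The members' summed level was 1.25, 1.25 and 1.21% of CPM in the isotype co-cultures and 1.23, 1.23 and 1.29% in the anti-PD1 co-cultures, against 1.47, 1.42 and 1.54% in MC38 alone. These are shares of the deposited values, not of reads. No co-culture library reached the lowest library of MC38 alone. The third library of MC38 alone, with its T cell transcripts, had the highest share of the 9. T cell markers moved with the co-cultures: of 12 tested, 4 rose with isotype and 3 with anti-PD1, and without the third library of MC38 alone 12 and 11 rose. The part of T cell RNA in the members' levels was not tested.

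**Figure D1:**
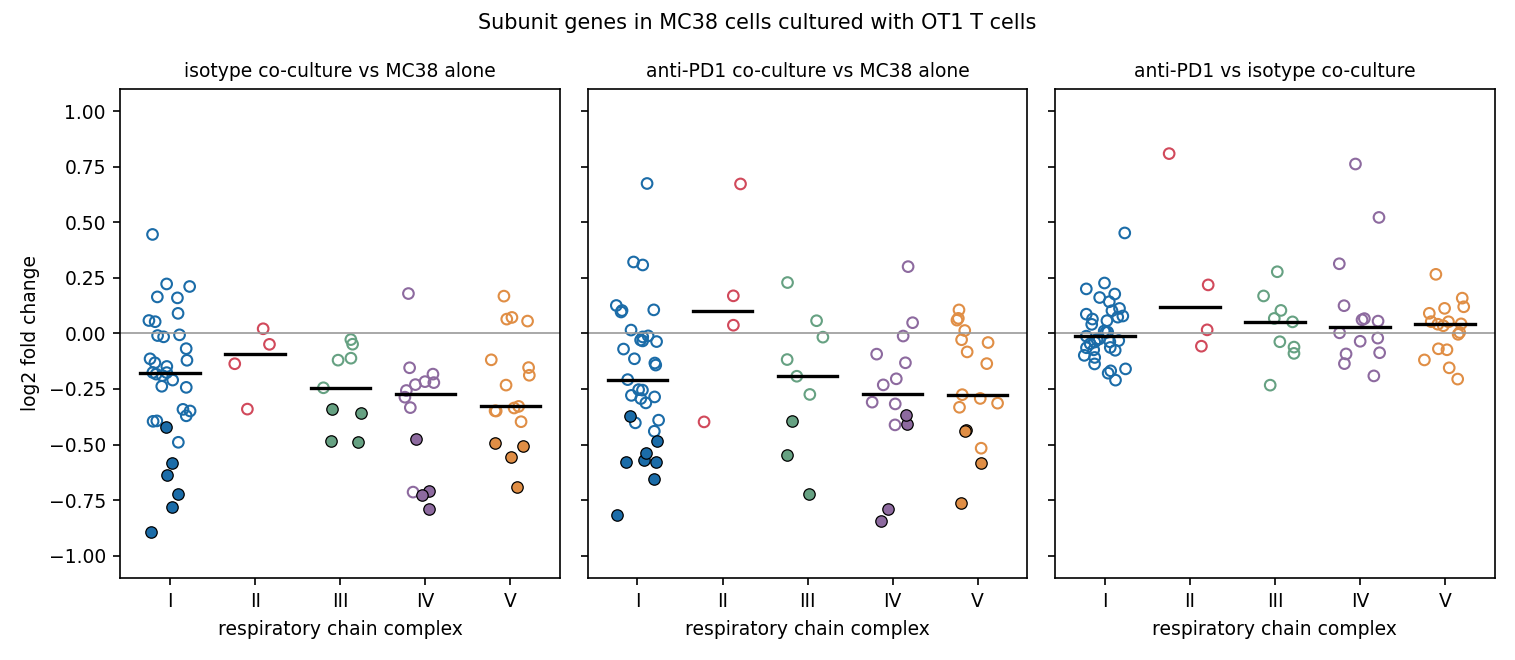
Log2 fold change of each of the 79 subunit genes (points) by complex in the 3 co-culture comparisons, with the median of each complex as a bar; filled points have an adjusted p under 0.05. Filled points lie below 0 in complexes I, III, IV and V in both comparisons with MC38 alone. Complex II, with only 4 genes, has none, and the comparison of the antibodies has none.

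Both comparisons called 15 members, which is 83.3% of the isotype list and 78.9% of the anti-PD1 list. They are Ndufs4, Ndufv2, Ndufc2, Ndufb4, Ndufa6 and Ndufa7 of complex I, Uqcrh, Uqcrb and Uqcr10 of complex III, Cox7a2, Cox7b and Cox4i1 of complex IV, and Atp5e, Atp5f1 and Atp5j2 of complex V. Atp5h, Ndufa4 and Uqcrq passed only with isotype, and Atp5k, Cox7a2l, Ndufb9 and Ndufs6 only with anti-PD1. None of these 7 genes differed between the antibodies at an adjusted p under 0.05. The other 57 members passed in neither comparison.

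Without the third library of MC38 alone, 20 members fell and 0 rose with isotype, and 18 fell and 1 (Ndufa1) rose with anti-PD1. Of all genes, 8.13% and 9.83% then fell. By complex, 7 members of complex I, 4 of III, 5 of IV and 4 of V fell with isotype, and 8, 3, 3 and 4 with anti-PD1, with 0 of complex II in either. Of the original calls, 16 of 18 and 16 of 19 were kept, and 13 of the 15 common genes passed in both, the exceptions being Atp5j2 and Cox4i1. The calls also depended on other libraries. With isotype, 11 members fell without the first isotype library and 11 without the third. These are 13.9% of the members each, beside 3.26% and 2.83% of all genes. With anti-PD1, 12 fell without the first library of MC38 alone and 12 without the first anti-PD1 library. Without the second anti-PD1 library 8 fell, and 15 without the third, whose labels conflict. In that order, these are 15.2, 15.2, 10.1 and 19% of the members, beside 6.15, 4.33, 3.96 and 4.07% of all genes.

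In complex I, the NADH dehydrogenase, 6 of 35 members fell with isotype and 8 with anti-PD1. The medians were -0.18 and -0.21, and 27 of 35 fold changes were below 0 in each comparison. Ndufs4, an accessory subunit that completes the NADH-oxidising arm, had 5.57, 5.66 and 5.55 log2 CPM in isotype co-cultures, 5.68, 5.55 and 5.77 in anti-PD1 co-cultures, and 6.42, 6.38 and 6.65 in MC38 alone. Every co-culture library was lower than every library of MC38 alone. Here and below, members with such separation were named for passing the test on the same libraries, so it adds no evidence. The share of all genes without overlap was not counted. The log2 fold change was -0.89 ± 0.12 (SE) with isotype (limma adjusted p = 0.000614) and -0.82 ± 0.12 with anti-PD1 (adjusted p = 0.00105), and -0.81 and -0.74 without the third library of MC38 alone.

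Ndufv2, a core iron-sulfur subunit of the same arm, had 5.48, 5.37 and 5.29 log2 CPM in isotype co-cultures, 5.42, 5.56 and 5.76 in anti-PD1 co-cultures, and 5.95, 6.09 and 6.44 in MC38 alone. Its log2 fold change was -0.78 ± 0.15 with isotype (limma adjusted p = 0.00665) and -0.58 ± 0.15 with anti-PD1 (adjusted p = 0.0266), and -0.64 and -0.44 without the third library of MC38 alone. Ndufc2, an accessory subunit of the membrane arm, had 6.09, 6.22 and 5.92 log2 CPM in isotype co-cultures, 6.07, 6.09 and 6.26 in anti-PD1 co-cultures, and 6.63, 6.78 and 6.98 in MC38 alone. Ndufc2 had log2 fold changes of -0.72 ± 0.13 and -0.66 ± 0.13, and -0.63 and -0.56 without that library. For both genes all co-culture libraries were below those of MC38 alone, while the 2 co-culture groups overlapped. Ndufb4, Ndufa6 and Ndufa7, further accessory subunits, had log2 fold changes between -0.64 and -0.42 in the 2 comparisons. Ndufb8, the most abundant gene of the complex, had -0.34 ± 0.12 with isotype (adjusted p = 0.0994) and -0.26 ± 0.12 with anti-PD1 (adjusted p = 0.192) and passed in neither.

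Complex II, succinate dehydrogenase, had 0 of 4 members past the threshold in either comparison (limma). So small a set cannot be told apart from the other complexes by this count. Sdha, the flavoprotein subunit, had 5.66, 5.91 and 5.78 log2 CPM in isotype co-cultures, 5.85, 5.63 and 5.71 in anti-PD1 co-cultures, and 5.80, 6.02 and 6.57 in MC38 alone. Its log2 fold change was -0.34 ± 0.18 with isotype (adjusted p = 0.255) and -0.40 ± 0.18 with anti-PD1 (adjusted p = 0.170). Without the third library of MC38 alone these were -0.12 and -0.18. Sdhb, the iron-sulfur subunit, had 6.63, 6.69 and 6.53 log2 CPM in isotype co-cultures, 6.66, 6.47 and 6.77 in anti-PD1 co-cultures, and 6.47, 6.47 and 6.84 in MC38 alone. The 3 groups overlapped, and the 95% confidence interval of its log2 fold change ran from -0.27 to 0.32 with isotype and from -0.26 to 0.33 with anti-PD1. Sdhc, a membrane anchor, had -0.05 ± 0.12 and 0.17 ± 0.12. Sdhd, the other anchor and the lowest of the 4, had 2.56, 1.82 and 1.87 log2 CPM in isotype co-cultures, 2.83, 2.86 and 2.99 in anti-PD1 co-cultures, and 2.25, 2.56 and 1.85 in MC38 alone.

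In complex III, the cytochrome bc1 complex, 4 of 9 members fell with isotype and 3 with anti-PD1, with medians of -0.24 and -0.19. All 9 fold changes were below 0 with isotype and 7 with anti-PD1. Uqcrh had 9.61, 9.56 and 9.61 log2 CPM in isotype co-cultures, 9.17, 9.52 and 9.39 in anti-PD1 co-cultures, and 10.09, 10.12 and 10.05 in MC38 alone. All 6 co-culture libraries were below those of MC38 alone, by a log2 fold change of -0.49 ± 0.11 with isotype (limma adjusted p = 0.0122) and -0.72 ± 0.11 with anti-PD1 (adjusted p = 0.00127), and -0.51 and -0.74 without the third of them. Uqcrb, the ubiquinone-binding subunit, had -0.48 ± 0.09 and -0.55 ± 0.09, and the small subunit Uqcr10 had -0.36 ± 0.10 and -0.40 ± 0.10. Of the catalytic subunits encoded in the nucleus, Uqcrfs1, the Rieske iron-sulfur protein, and Cyc1, which carries the cytochrome c1 haem, did not pass. Cyc1 had 4.91, 4.78 and 4.81 log2 CPM in isotype co-cultures, 4.94, 4.94 and 5.13 in anti-PD1 co-cultures, and 4.99, 4.53 and 5.31 in MC38 alone.

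In complex IV, cytochrome c oxidase, 4 of 14 members fell in each comparison and the median was -0.27 in both. Cox7a2, the widely expressed isoform of a small subunit, had 7.21, 7.15 and 7.29 log2 CPM in isotype co-cultures, 6.95, 7.11 and 7.18 in anti-PD1 co-cultures, and 7.94, 7.99 and 7.85 in MC38 alone. Both co-culture groups, which overlapped each other, were below MC38 alone, with a log2 fold change of -0.71 ± 0.10 with isotype (limma adjusted p = 0.00106) and -0.84 ± 0.10 with anti-PD1 (adjusted p = 0.000321), and -0.75 and -0.88 without the third library of MC38 alone. Its paralogue Cox7a2l had -0.33 ± 0.11 with isotype (limma adjusted p = 0.0724) and -0.37 ± 0.11 with anti-PD1 (adjusted p = 0.0456). The anti-PD1 call was lost without any 1 of 8 of the 9 libraries, the second of MC38 alone being the exception. The muscle paralogue Cox7a1 stood at 1.07 to 2.03 log2 CPM in the 9 libraries and did not pass.

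Cox7b, another small subunit, had 7.61, 7.28 and 7.44 log2 CPM in isotype co-cultures, 7.45, 7.51 and 7.39 in anti-PD1 co-cultures, and 8.02, 8.12 and 8.58 in MC38 alone. Its log2 fold change was -0.79 ± 0.15 in each comparison (limma adjusted p = 0.00607 with isotype and 0.00586 with anti-PD1), and -0.62 in each without the third library of MC38 alone. Ndufa4 had 4.93, 5.05 and 4.82 log2 CPM in isotype co-cultures, 4.96, 5.33 and 5.45 in anti-PD1 co-cultures, and 5.53, 5.54 and 5.91 in MC38 alone, with the anti-PD1 values reaching closest to MC38 alone. Its log2 fold change was -0.73 ± 0.16 with isotype (adjusted p = 0.0154) and -0.41 ± 0.16 with anti-PD1 (adjusted p = 0.118), and -0.60 and -0.29 without the third library of MC38 alone. The isotype call was lost without the first or the third isotype library. Cox4i1, the largest nuclear subunit of the complex, had -0.47 ± 0.11 with isotype (adjusted p = 0.0215) and -0.41 ± 0.11 with anti-PD1 (adjusted p = 0.0370). Its isotype call was lost without the first or the third isotype library. Its anti-PD1 call was lost without any 1 of 6 libraries, namely all but the second of MC38 alone, the second isotype library and the third anti-PD1 library. Cox6c, the most abundant gene of the complex, had -0.22 ± 0.12 and -0.31 ± 0.12 and passed in neither, but did so in both comparisons without the third library of MC38 alone, at -0.34 and -0.44. Of the paralogues Cox6a1 and Cox6a2, neither passed.

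**Figure D2:**
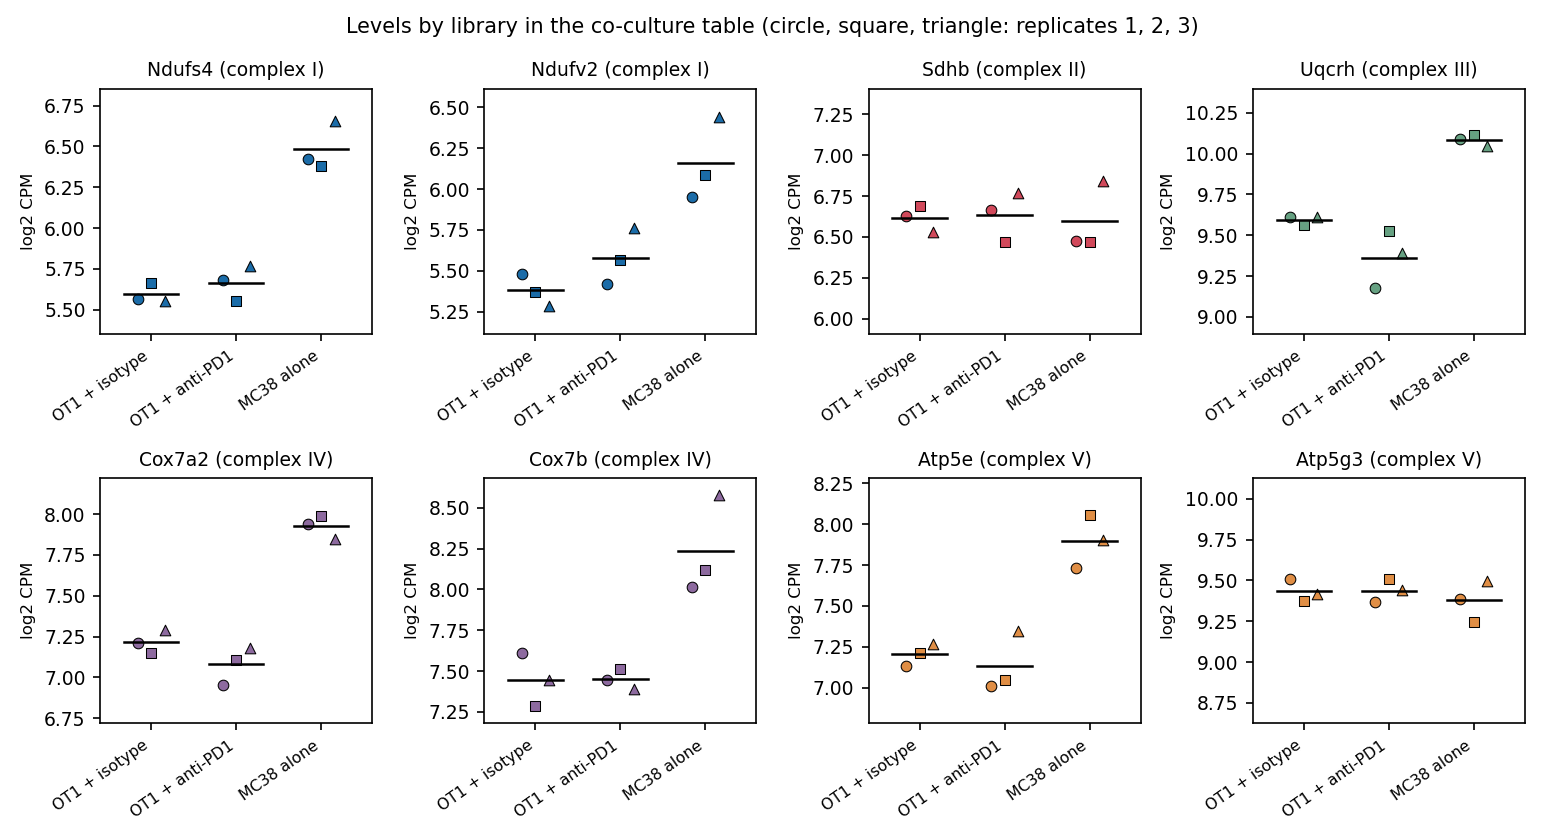
Log2 CPM in each library of 8 subunit genes in isotype co-cultures, anti-PD1 co-cultures and MC38 alone (points, with the group mean as a bar; each panel has its own vertical range). Ndufs4, Ndufv2, Uqcrh, Cox7a2, Cox7b and Atp5e are lower in all 6 co-culture libraries than in MC38 alone, whereas the groups overlap for Sdhb and Atp5g3. The genes lower in co-culture were named for passing the test on these libraries, so their separation adds no evidence.

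In complex V, 4 of 17 members fell in each comparison, with medians of -0.33 with isotype and -0.28 with anti-PD1. Atp5e, the epsilon subunit of the central stalk, had 7.13, 7.21 and 7.27 log2 CPM in isotype co-cultures, 7.01, 7.05 and 7.35 in anti-PD1 co-cultures, and 7.73, 8.06 and 7.90 in MC38 alone. All co-culture values lay below those of MC38 alone, by a log2 fold change of -0.69 ± 0.12 with isotype (limma adjusted p = 0.00454) and -0.76 ± 0.12 with anti-PD1 (adjusted p = 0.00251), and -0.69 and -0.76 without the third of them. Atp5f1, the b subunit of the peripheral stalk, had -0.55 ± 0.11 and -0.44 ± 0.11, and Atp5j2, the f subunit of the membrane part, had -0.51 ± 0.15 and -0.58 ± 0.15. The 3 genes Atp5g1, Atp5g2 and Atp5g3 encode the same mature c subunit of the rotor ring, and none passed in co-culture. Atp5g3 had 9.51, 9.38 and 9.42 log2 CPM in isotype co-cultures, 9.37, 9.51 and 9.44 in anti-PD1 co-cultures, and 9.39, 9.25 and 9.50 in MC38 alone. Its 95% confidence interval ran from -0.17 to 0.28 with isotype and from -0.16 to 0.28 with anti-PD1. Atp5l, Atp5s and Atp5sl did not pass.

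The antibody against PD1 was compared with the isotype antibody in the presence of T cells. Of the members 0 of 79 passed, as did 0% of the 12707 genes tested (limma), while 3 members and 347 genes had an unadjusted p under 0.05. The members' log2 fold changes had a median of 0.01 and ran from -0.23 to 0.81, with 95% confidence intervals reaching 0.28 to either side (median over members). The 3 members with the smallest p were Sdhd with 0.81 ± 0.28, Cox7c with 0.52 ± 0.19 and Cox6a2 with 0.76 ± 0.30, each with an adjusted p of 1.00. Cox7c, a small subunit of complex IV, had 8.80, 8.83 and 8.91 log2 CPM in anti-PD1 co-cultures, against 8.57, 8.06 and 8.35 in isotype co-cultures. Its values in MC38 alone, 8.56, 8.14 and 8.95, overlapped both.

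Promoters of 4 of the genes that fell in both co-cultures are printed because these genes moved together. They come from RefSeq on GRCm38.p6, run from 250 bases before to 50 bases after the annotated start, 5′ to 3′ on the strand of the gene, and capitals mark matches on either strand to the core motifs of NRF1 (GCGCANGCG), of ETS factors such as GABPA (CCGGAAG) and of YY1 (AANATGGC), regulators known for respiratory chain genes.
Ndufs4, chr13:114388045-114388344, minus strand, with a YY1 match: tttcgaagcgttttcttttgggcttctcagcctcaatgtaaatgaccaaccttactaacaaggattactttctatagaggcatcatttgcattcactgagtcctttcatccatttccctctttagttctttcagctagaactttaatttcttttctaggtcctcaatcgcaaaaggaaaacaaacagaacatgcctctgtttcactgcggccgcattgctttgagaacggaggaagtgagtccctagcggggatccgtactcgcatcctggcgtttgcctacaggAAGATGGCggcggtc
Ndufb4, chr16:37654319-37654618, minus strand, with 3 NRF1 matches: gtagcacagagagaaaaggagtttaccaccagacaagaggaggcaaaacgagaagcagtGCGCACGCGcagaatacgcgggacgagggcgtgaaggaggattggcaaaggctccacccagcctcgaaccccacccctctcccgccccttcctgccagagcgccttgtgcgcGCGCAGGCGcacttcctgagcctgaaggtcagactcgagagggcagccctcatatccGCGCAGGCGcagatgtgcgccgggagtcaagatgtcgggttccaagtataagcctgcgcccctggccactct
Uqcrh, chr4:116075021-116075320, minus strand, with an ETS match: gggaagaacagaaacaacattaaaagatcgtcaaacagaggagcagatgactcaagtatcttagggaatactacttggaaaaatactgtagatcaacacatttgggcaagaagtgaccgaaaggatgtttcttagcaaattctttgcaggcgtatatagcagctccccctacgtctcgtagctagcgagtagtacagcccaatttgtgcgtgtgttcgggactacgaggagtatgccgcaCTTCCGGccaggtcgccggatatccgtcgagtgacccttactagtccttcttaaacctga
Cox7a2, chr9:79759804-79760103, minus strand, with no match to the 3 motifs: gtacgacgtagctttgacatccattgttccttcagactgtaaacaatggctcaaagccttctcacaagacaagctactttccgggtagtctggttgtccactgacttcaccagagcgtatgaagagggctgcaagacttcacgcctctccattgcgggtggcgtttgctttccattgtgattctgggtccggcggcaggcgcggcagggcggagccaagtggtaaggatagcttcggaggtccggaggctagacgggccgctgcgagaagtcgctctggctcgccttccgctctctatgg

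Windows were found for 66 of the 79 members. The NRF1 core was in 30.3% of these 66 genes, beside 7.0% of 27025 genes with a window. The ETS core was in 24.2%, beside 9.9%, and the YY1 core in 27.3%, beside 7.0%. The GC box (GGGCGG), matched for comparison and not shown in capitals, was in 39.4%, beside 38.2%. All were searched on both strands, an ETS and a YY1 match can share letters, and 44 members held at least 1 of the first 3. Of the 13 genes with a window that fell in both co-cultures, 2 held the NRF1 core, 2 the ETS core, 5 the YY1 core and 6 the GC box. A match describes these letters and shows no binding.

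With single cytokines or supernatant no subunit gene passed the test in vitro when all groups of the table were fitted together. With only the 2 groups compared in the fit, IFNG called 7 members (Ndufa5 up, and Cox7c, Ndufa1, Ndufa4, Ndufb3, Sdhc and Sdhd down), with 0.912% of all genes up and 2.86% down. TNF then called 1, Cox7c, which was lower, with 0.307% of genes up and 0.173% down. With TNF 0 of 79 members and 0.275% of the 12720 genes tested passed (limma), and 1 member and 797 genes had an unadjusted p under 0.05. The members' median log2 fold change was -0.04, beside 0.01 over all genes. With IFNG 0 members and 0.354% of genes passed, and 9 members and 1361 genes had an unadjusted p under 0.05, at a median of 0.04 for members and for all genes. With supernatant 0 members and 0.448% of genes passed, and 2 members and 652 genes had an unadjusted p under 0.05, at medians of -0.10 for members and 0.01 for all genes. The 95% confidence interval of a member reached 0.37 to either side of its fold change (median over members). Without the first supernatant library 1 member, Sdhd, fell in supernatant.

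The members with the smallest p were the following. With TNF they were Atp5s at -1.34 ± 0.58, Ndufb6 at -0.32 ± 0.17 and Atp5g2 at -0.26 ± 0.15, with limma adjusted p of 0.783, 0.818 and 0.838. With IFNG they were Ndufa5 at 0.53 ± 0.16, Uqcrc1 at -0.53 ± 0.18 and Sdhb at 0.42 ± 0.15, with adjusted p of 0.403, 0.430 and 0.432. With supernatant they were Cyc1 at -0.56 ± 0.21, Ndufb6 at -0.39 ± 0.17 and Ndufa12 at 0.48 ± 0.22, with adjusted p of 0.835, 0.864 and 0.864. Ndufa5 and Sdhb reappear among the genes that rose with both cytokines. Both comparisons use the same untreated libraries, so they are not independent of each other.

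With TNF and IFNG together, 6 members rose and 1 fell. Over all genes 4.77% rose and 4.25% fell, against 7.59% and 1.27% of the members, and the members' median was -0.09, beside 0.02. Of those that rose, 4 belong to complex I (Ndufa5, Ndufa13, Ndufs8 and Ndufa2), 1 to complex II (Sdhb) and 1 to complex V (Atp5k), and the gene that fell was Atp5g3 of complex V. None of complexes III and IV passed. With a filter at 2 log2 CPM 4 members fell (5.33%, beside 5.97% of all genes), Atp5g2, Ndufb6 and, in complex IV, Cox5b being added. The medians were 0.12 for complex I, -0.32 for complex II, -0.09 for complex III, -0.33 for complex IV and -0.24 for complex V.

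**Figure D3:**
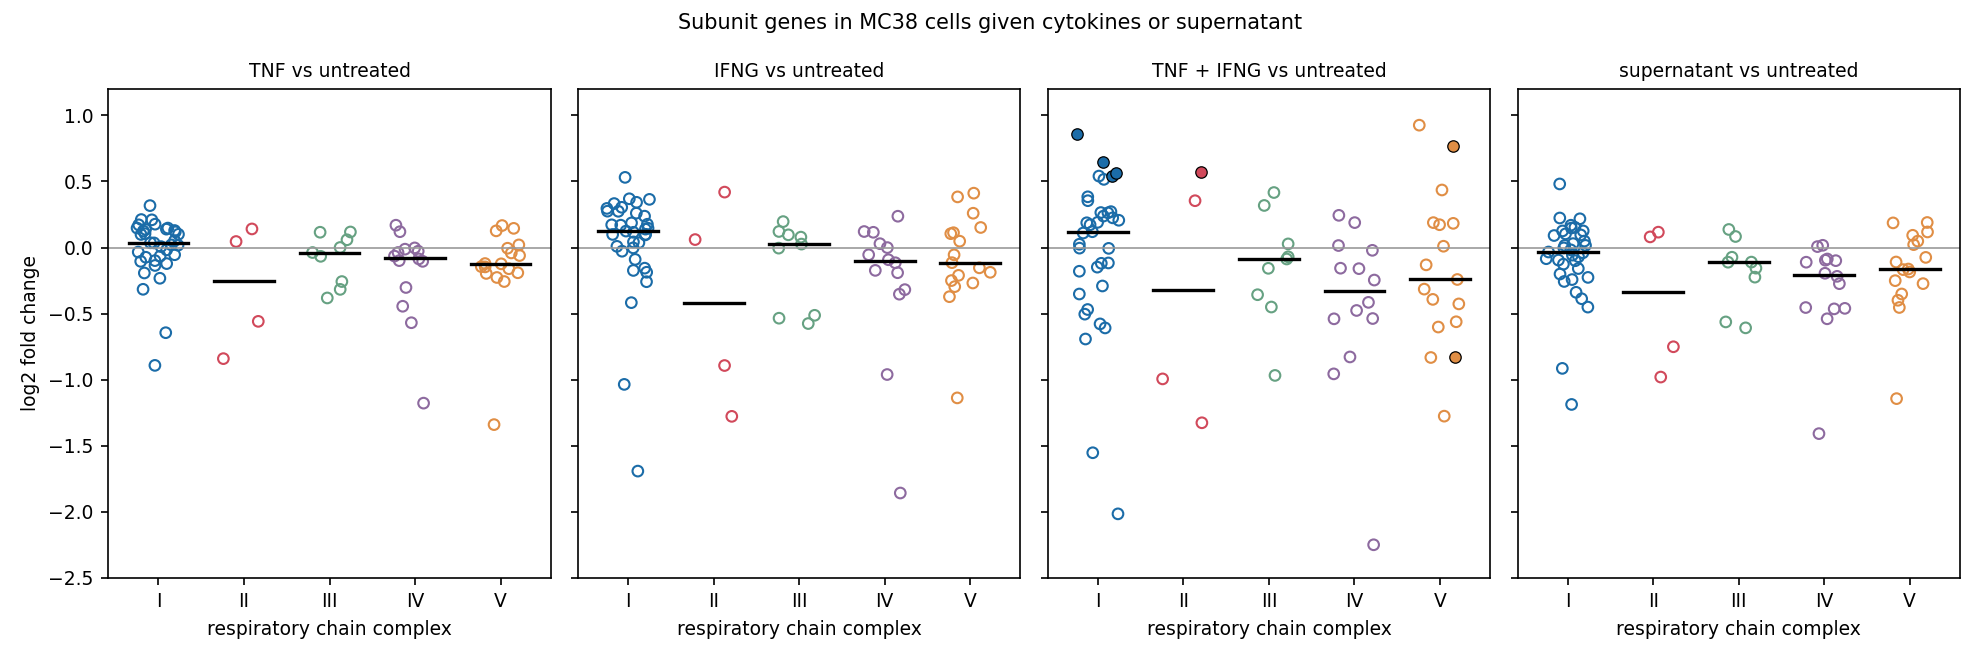
Log2 fold change against untreated cells of each of the 79 subunit genes (points) by complex with TNF, IFNG, TNF + IFNG and supernatant, with the median of each complex as a bar; filled points have an adjusted p under 0.05. The 7 filled points are all with TNF + IFNG, and the lowest open points, Cox7c and Ndufa1 among them, recur in each panel.

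Ndufa5, an accessory subunit of the matrix arm of complex I, had 8.08 and 8.38 log2 CPM with both cytokines, 7.94 and 7.86 with IFNG, 7.44 and 7.72 with TNF, and 7.42 and 7.32 in untreated cells. Both libraries with the 2 cytokines were above all others, with a log2 fold change of 0.86 ± 0.16 against untreated cells (limma adjusted p = 0.0235). Ndufa13, also known as GRIM-19 and first found as a gene needed for cell death induced by interferon and retinoic acid, had 7.33 and 7.48 log2 CPM with both cytokines, 7.04 and 7.08 with IFNG, 6.88 and 6.89 with TNF, and 6.77 and 6.75 in untreated cells. Its log2 fold change was 0.65 ± 0.13 (adjusted p = 0.0275). Ndufs8, a core iron-sulfur subunit, had 5.74 and 5.72 log2 CPM with both cytokines, 5.45 and 5.55 with IFNG, 5.34 and 5.34 with TNF, and 5.21 and 5.12 in untreated cells, a log2 fold change of 0.57 ± 0.14 (adjusted p = 0.0450). Ndufa2, an accessory subunit, had 0.54 ± 0.14 (adjusted p = 0.0497).

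Atp5k, subunit e of the ATP synthase, had 9.66 and 9.69 log2 CPM with both cytokines, 9.31 and 9.26 with IFNG, 8.93 and 9.13 with TNF, and 8.96 and 8.84 in untreated cells. The log2 fold change was 0.77 ± 0.14 (limma adjusted p = 0.0223). It has a near copy listed under the pseudogene name Atp5k-ps2, at 0.39 to 1.95 log2 CPM in the same libraries. Sdhb had 7.42 and 7.24 log2 CPM with both cytokines, 7.21 and 7.15 with IFNG, 6.84 and 6.97 with TNF, and 6.89 and 6.64 in untreated cells, a log2 fold change of 0.57 ± 0.15 (adjusted p = 0.0468). The groups given both cytokines and untreated did not overlap for any of these genes. They were named for passing the test on the same libraries, so this adds no evidence. The share of all genes without overlap was not counted.

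Among the 3 genes for the c subunit, Atp5g3 had 8.91 and 9.35 log2 CPM with both cytokines, 9.55 and 9.62 with IFNG, 9.87 and 9.67 with TNF, and 9.95 and 9.97 in untreated cells. The log2 fold change was -0.83 ± 0.20 (limma adjusted p = 0.0423). Atp5g2 had -0.56 ± 0.15 (adjusted p = 0.0547) and Atp5g1 0.01 ± 0.16 (adjusted p = 0.973). The differences between the 3 genes were not tested. Atp5l had -0.83 ± 0.26 (adjusted p = 0.0712) and, like Atp5g3 and Atp5g2, its untreated libraries were above both libraries given the 2 cytokines.

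The second TNF + IFNG library was the shallowest in vitro, at an implied 3420000 reads, against 6560000 to 11290000 in the other libraries. Its 2 listed T cell markers, Lck and Il2rb, summed to 7.68 CPM, against 0.45 to 3.46 CPM in the others. These 7 calls rest on few libraries. There were 0 without either untreated library, either IFNG library or the second TNF + IFNG library, 3 without either TNF library, 4 without the first TNF + IFNG library, and 24 (10 rose and 14 fell) without either supernatant library. In those last fits 8.51% and 8.38% of all genes rose and 8.44% and 8.54% fell. With only the groups compared, or without the intensity trend of the variance, there were also 0. Leaving out a supernatant library leaves that group with 1 library, so that the gap between its replicates no longer enters the shared spread. Ndufa5, Ndufa13 and Atp5k were the 3 calls kept without either TNF library.

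The interaction asked whether the 2 cytokines together changed a gene more or less than the sum of each alone. It called 0 of 79 members and 0.0157% of genes (limma), and 0 members and 500 genes had an unadjusted p under 0.05. The smallest p belonged to Atp5l with -0.68 ± 0.36, Cyc1 with 0.53 ± 0.30 and Cox4i1 with 0.50 ± 0.28, each with an adjusted p of 0.962. The members' 95% confidence intervals reached 0.52 to either side (median).

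**Figure D4:**
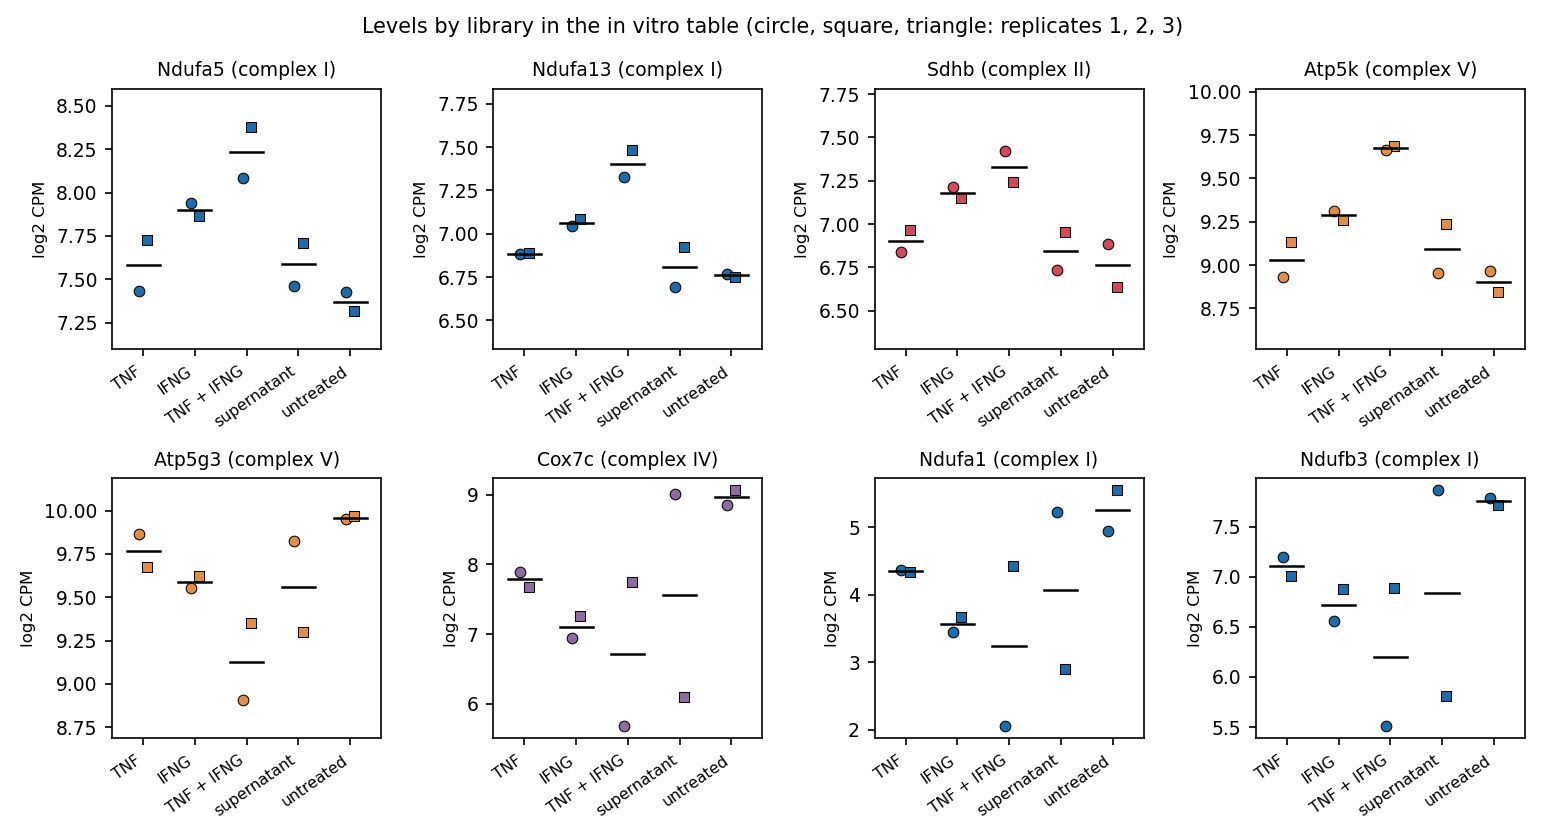
Log2 CPM in each library of 8 subunit genes with TNF, IFNG, TNF + IFNG and supernatant and in untreated cells (points, with the group mean as a bar; each panel has its own vertical range). Ndufa5, Ndufa13, Sdhb and Atp5k are highest with TNF + IFNG, and for Cox7c, Ndufa1 and Ndufb3 the replicates of TNF + IFNG and of supernatant lie more than 1 log2 unit apart.

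Some members differed widely between replicates of 1 group, at about the share of all genes. Among the 75 members with a mean of at least 2 log2 CPM, 7 differed by more than 1 log2 unit between the supernatant libraries (9.33%, beside 7.08% of all genes), and 5 of these 7 did so between the TNF + IFNG libraries (6.67%, beside 7.82%). None did within the TNF, IFNG or untreated groups, where 2.54, 2.14 and 2.25% of all genes did. The 7 are Cox7c, Sdhd, Ndufa1, Ndufb3, Sdhc, Ndufa4 and Uqcrfs1, and Sdhd and Uqcrfs1 are the ones below 1 unit with TNF + IFNG. The set was chosen from these values, so it is described without a test.

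Cox7c had 5.68 and 7.75 log2 CPM with both cytokines, 9.02 and 6.09 with supernatant, 6.95 and 7.26 with IFNG, 7.90 and 7.67 with TNF, and 8.86 and 9.07 in untreated cells. Ndufa1, a small accessory subunit needed to assemble complex I, had 2.05 and 4.42 log2 CPM with both cytokines, 5.23 and 2.90 with supernatant, 3.44 and 3.68 with IFNG, 4.37 and 4.34 with TNF, and 4.95 and 5.55 in untreated cells. For both, the first supernatant library stood at the untreated level and the second far below it. Averaged over the 7 genes, the level was 4.43 and 5.82 log2 CPM with both cytokines, 6.65 and 4.67 with supernatant, 5.29 and 5.49 with IFNG, 5.91 and 5.77 with TNF, and 6.45 and 6.68 in untreated cells. Over the other 72 members it lay between 6.60 and 6.75 in every in vitro library. In co-culture the average of the 7 was 5.72 to 6.11 with isotype, 6.17 to 6.35 with anti-PD1 and 5.83 to 6.22 in MC38 alone.

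Most of these genes share a feature of sequence that the choice did not use. The last 200 bases of an annotated transcript held 36% G and C or less in 6 of the 7. Sdhc, with 52.5%, was the exception. The same held for 12 of the other 71 members, whose median was 46.0%. The bound of 36% is the value of Ndufa1, which is among the 7, so it was not set apart from them. Transcript ends of genes outside the members were not measured. Across the 78 members with a transcript, the difference between supernatant libraries 1 and 2 had a Spearman rho of -0.49 with the GC content of that end. The 7 were chosen on that same difference, so this rho is no separate evidence. For the difference between TNF + IFNG libraries 2 and 1 rho was -0.17. The log2 fold changes against untreated cells had rho of 0.43 with TNF, 0.37 with IFNG, 0.48 with TNF + IFNG and 0.43 with supernatant, so members with a GC-poor end tended to be lower in treated cells. These 4 share the untreated libraries, and genes are not independent replicates. In co-culture rho was 0.10 with isotype and 0.02 with anti-PD1. The part of the 3′ end in the in vitro values was not tested.

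**Figure D5:**
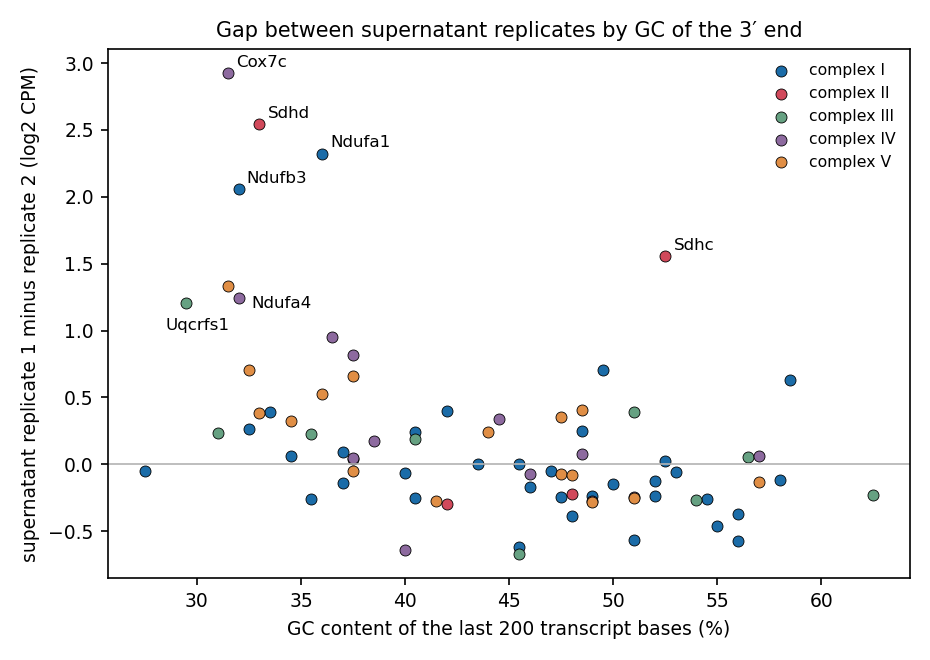
Difference in log2 CPM between supernatant libraries 1 and 2 (vertical axis) against the GC content of the last 200 transcript bases (horizontal axis, %) for 78 subunit genes, coloured by complex. The 7 named genes differ by more than 1 log2 unit, and 6 of them lie at or below 36% GC; the unnamed point above 1 is Atp5s, which averaged below 2 log2 CPM.

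Other genes of the respiratory chain were read from lists. Of the 13 subunits encoded in mitochondrial DNA, 7 fell and 0 rose with isotype, and 5 fell and 0 rose with anti-PD1. Over all genes 6.22% and 7.71% fell (limma, adjusted over all genes tested). The medians of the 13 were -0.93 and -0.84. mt-Atp6, a subunit of the proton channel of complex V, had 9.93, 9.28 and 9.86 log2 CPM in isotype co-cultures, 10.11, 9.96 and 9.79 in anti-PD1 co-cultures, and 10.84, 10.69 and 10.92 in MC38 alone. All co-culture libraries were below those of MC38 alone, which adds no evidence, as mt-Atp6 was named after its values were seen. Its log2 fold changes were -1.12 ± 0.17 (limma adjusted p = 0.00162) and -0.86 ± 0.17 (adjusted p = 0.00721), and -1.07 and -0.81 without the third library of MC38 alone. Without that library 6 of the 13 fell with isotype and 4 with anti-PD1, beside 8.13% and 9.83% of all genes. The call of mt-Cytb was lost with isotype and that of mt-Nd1 with anti-PD1. The others that fell in both were mt-Nd1, mt-Nd2, mt-Co2 and mt-Co3. Between the antibodies 0 of 13 passed. In vitro 1 of 13, mt-Co2, fell with TNF + IFNG (-0.86 ± 0.20, limma adjusted p = 0.0395), beside 4.25% of all genes. With TNF, IFNG or supernatant 0 passed.

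Of 48 assembly factors, proteins that build the complexes without staying in them, 4 fell and 0 rose with isotype, and 3 fell and 0 rose with anti-PD1, close to the 6.22% and 7.71% of all genes that fell. Without the third library of MC38 alone 5 fell and 0 rose, and 4 fell and 1 rose, while 8.13% and 9.83% of all genes fell. Uqcc3 and Coa6, needed for complexes III and IV, fell in both. Uqcc3 had 4.23, 4.25 and 4.22 log2 CPM in isotype co-cultures, 3.80, 4.02 and 4.20 in anti-PD1 co-cultures, and 5.16, 4.75 and 5.11 in MC38 alone. With TNF + IFNG it rose, by 0.72 ± 0.19 (limma adjusted p = 0.0490), as did Coa4, while Coa6 and Atpaf2 fell. These calls are close to the 4.77% of all genes that rose and the 4.25% that fell. No factor passed with TNF, IFNG or supernatant.

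Of 20 regulators of mitochondrial gene expression, 2 rose and 2 fell in each comparison with MC38 alone, beside 7.64% up and 6.22% down (isotype) and 8.42% up and 7.71% down (anti-PD1) over all genes. Without the third library of MC38 alone 3 rose and 2 fell with isotype, and 2 rose and 2 fell with anti-PD1. Ppargc1a and Ppargc1b, coactivators that drive respiratory chain genes, fell in both. Ppargc1b had 1.65, 0.90 and 0.78 log2 CPM in isotype co-cultures, 1.43, 0.97 and 0.67 in anti-PD1 co-cultures, and 2.51, 2.44 and 2.49 in MC38 alone. Its log2 fold changes were -1.37 ± 0.33 (limma adjusted p = 0.0211) and -1.45 ± 0.33 (adjusted p = 0.0147), and -1.36 and -1.45 without that library. Ppargc1a, at 1.64, 1.71 and 1.21 log2 CPM in MC38 alone, was at or below -0.34 in all 6 co-cultures, where values rest on few reads. Myc, a transcription factor that also promotes mitochondrial biogenesis, had 3.63, 3.65 and 3.47 log2 CPM in isotype co-cultures, 3.86, 3.93 and 4.28 in anti-PD1 co-cultures, and 2.58, 2.44 and 1.95 in MC38 alone, and rose in both. Pprc1 rose with isotype only and Gabpb1, a partner of GABPA, with anti-PD1 only, though Gabpb1 rose in both without the third library of MC38 alone, and neither differed between the antibodies. With TNF + IFNG Esrra, the orphan nuclear receptor that partners these coactivators, fell by 1.74 on the log2 scale (limma adjusted p = 0.0203). Over all genes 4.25% fell. No other regulator passed with both cytokines, and none did with TNF, IFNG or supernatant.

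Of 13 citric acid cycle genes, Dlst rose in both co-culture comparisons (0.54 ± 0.13 and 0.53 ± 0.13), and Cs and Fh1 fell with TNF + IFNG (-0.58 ± 0.13 and -1.54 ± 0.37). Of 17 genes for electron carriers, coenzyme Q synthesis and related functions, Coq7, a hydroxylase of coenzyme Q synthesis, rose in both co-culture comparisons (0.52 ± 0.13 and 0.50 ± 0.13). Over all genes 7.64% rose with isotype and 8.42% with anti-PD1, so 1 gene of either list is near that share. With TNF + IFNG 4.25% of all genes fell. Dlst and Coq7 also rose in both without the third library of MC38 alone. Ogdh, of the citric acid cycle, then fell with anti-PD1. Of all genes, 9.36% then rose with isotype, and 10.4% rose and 9.83% fell with anti-PD1. No other gene of these 2 lists passed in these comparisons, and none did with TNF, IFNG, supernatant or between the antibodies.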

How the data were processed

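RNA of MC38 cells was made into QuantSeq 3′ mRNA libraries, per the labels' protocols. Per the submitters' processing notes, cutadapt 1.7, FastQC, HISAT2, Subread, featureCounts and limma were used, with the builds mm10 and GRCm38, in no stated order. Whether counting used the strand is not stated. The values the authors deposited are log2 CPM, a unit read from the values, since 2 to their power sums to 993229 to 998505 per library. Within a table the libraries have nearly the same distribution, so a shift of most transcripts together cannot be seen. The 2 tables were normalized separately, and tests stayed within a table. Of the 28 samples, the 9 of OT1 T cells have no column and were not analysed here. Depth was implied from the tied steps of low values, and limits the precision of low genes.

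One limma 3.58.1 model per table (R 4.3.3, empirical Bayes, intensity trend) took the deposited log2 values of its groups, keeping genes that reached 0 log2 CPM in at least the number of libraries of the smallest group. P-values are 2-sided and were adjusted over every gene tested (Benjamini-Hochberg), the threshold being 0.05. Errors of fold changes are standard errors from that model. Residual degrees of freedom were 5 in vitro and 6 in co-culture. The fit was tested on simulated data. Named members were the most abundant of each complex, up to 5 that rose and 5 that fell per comparison (or the 3 smallest p), the Sdh genes and paralogues. Others named were chosen after their values were seen. The members and lists were chosen with earlier results of these data known. Same-numbered libraries were not paired (correlation of deviations from -0.40 to 0.12 in vitro and -0.08 to 0.13 in co-culture). Transcript ends came from the GENCODE annotation of GRCm38 and were compared with BLAST 2.17.0, and promoters from RefSeq. Alternatives covered filters, pseudocount, median centring, variance trend, samples in the fit, replicate block and single libraries left out.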

Additional observations from a re-analysis of the deposited data

How the results depend on the processing

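The members' median log2 fold change moved by less than the spread between replicates under every alternative run. Its sign turned where it lay near 0, in 4 of 17 alternatives for the interaction (-0.06 to 0.04, against -0.03) and in 2 of 16 between the antibodies (-0.02 to 0.06, against 0.01). No named gene that passed in either fit changed direction. No filter, the stricter filter (at least 2 log2 CPM), the pseudocount of 1 and median centring kept every total of calls within 1.5 times. Median centring could change little, since the libraries of a table already have nearly the same distribution. The stricter filter moved the members that fell with TNF + IFNG to 4, against 1, and all genes that fell to 5.97%, against 4.25%. Without the intensity trend, TNF called 18 genes, TNF + IFNG 467 genes and 0 members, the interaction 1 gene, and anti-PD1 against MC38 alone 11 members. With only the groups compared, TNF called 61 genes and 1 member (Cox7c), IFNG 480 genes (116 up, 364 down, against 45 up and 0 down) and 7 members (Ndufa5 higher, and Cox7c, Ndufa1, Ndufa4, Ndufb3, Sdhc and Sdhd lower), TNF + IFNG 145 genes and 0 members, supernatant 37 genes, and anti-PD1 against MC38 alone 1251 genes and 10 members. Here fewer libraries set the spread. The same-numbered libraries share only a number. With the replicate block, TNF + IFNG called 594 genes and 3 members, and the members called in co-culture were 14 with isotype and 14 with anti-PD1. For TNF, crossed numbers, added after seeing the data, called 24 genes and 0 members, and the block 28 and 0.

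Leaving out 1 library at a time gave these ranges. All genes called ran from 11 to 41 with TNF, 29 to 50 with IFNG, 88 to 2155 with TNF + IFNG, 0 to 9 for the interaction, 1006 to 2223 with isotype, 1226 to 2571 with anti-PD1, and 0 to 1 between the antibodies. Members called ran from 0 to 24 with TNF + IFNG (at 24 most fell, 10 up and 14 down, against 6 up and 1 down), 0 to 1 with supernatant, 11 to 20 with isotype and 8 to 19 with anti-PD1. A group left with 1 library was assumed to vary like the others. In the core window (75 bases before to 25 after the start) 7.6% of members held the YY1 core and 25.8% the GC box, beside 2.4% and 26.8% of all genes. Depth limits the members below 2 log2 CPM, whose values rest on few reads.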

Other observations

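The names with -ps that the choice of members left out were listed beside their parent genes. Atp5l2-ps ran from 9.48 to 10.09 log2 CPM in vitro and from 8.88 to 9.58 in co-culture, beside 8.88 to 10.11 and 8.24 to 9.56 for Atp5l itself. Atp5k-ps2 ran from 0.39 to 1.95 in vitro and from -0.19 to 1.49 in co-culture. Uqcrh-ps2, listed in co-culture only, ran from -2.58 to 1.07.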
